A study of Mus musculus with 4 samples.

Results

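Collagen chain genes were examined in cells of C3H10T1/2, a mouse line with properties of mesenchymal progenitor cells (MPC). The members were all genes whose symbol consists of Col, a number, the letter a and a second number, and this rule took 44 of the 32285 genes in the count tables. Single cells were captured in droplets and sequenced on a 10X Genomics platform, which tags the RNA of a cell with a cell barcode and marks each molecule by a unique molecular identifier (UMI), and a gene's value in a cell is its number of UMIs. The 4 libraries were H3WT with DMSO, H3WT with 5-Azacitidine (5-Aza), H3R26C with DMSO and H3R26C with 5-Aza, and values are given in this order unless the libraries are named. All cells carried a lentiviral human histone H3 transgene with HA and FLAG tags, driven by the EF1 promoter and kept under puromycin, either as wild type (H3WT) or with cysteine in place of arginine 26 (H3R26C). The cells' own histone H3 genes were still present, and the sources used here give no clone for either transgene line. 5-Aza inhibits DNA methyltransferases and was used to start differentiation into several mesenchymal lineages, and DMSO was the vehicle. By the study's methods the exposure to 5-Aza was brief, and collection came after weeks of further culture. The words with 5-Aza thus name cells with this earlier treatment. The day of collection of the DMSO cells is not stated, so treatment and time in culture cannot be told apart.

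Collagens are trimers of chains that wind around each other through a repeat with glycine at regular spacing. Fibrillar chains build the tensile fibres of connective tissue, and FACIT chains attach to the surface of those fibres. Type IV chains form the sheet of the basement membrane, network chains such as type VIII form short-chain lattices, and type VI chains form beaded filaments around cells. Fibroblasts and mesenchymal progenitors are main producers of fibrillar and type VI collagen, and chondrocytes are known for types II, IX and XI.

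In the same order, 3710, 5993, 4727 and 7619 cells were kept of 6239, 15002, 6540 and 12110 barcodes, by a minimum of 5000 UMIs and 1500 genes and a maximum of 20% mitochondrial UMIs. The summed UMIs of the kept cells ranged from 84060490 to 110712425 per library, and the median cell held 22420, 13149, 16598 and 13123 UMIs. Any pair of libraries shared 24 to 58 barcodes among the kept cells. All 10 progenitor markers on the list, Vim and Prrx1 among them, were at 1 CPM (UMIs of a gene scaled to a common library total) or more in every library. Skeletal muscle markers summed to 30.5 and 23.6 CPM with DMSO and to 1755 and 2111 CPM with 5-Aza, and adipocyte markers to between 162 and 341 CPM. The defining chondrocyte gene Acan did not exceed 2.17 CPM, the osteoblast gene Sp7 did not exceed 0.0632 CPM, and epithelial markers summed to 0.320 CPM or less. Other genes of such lists were higher. Osteoblast markers summed to 255, 187, 252 and 129 CPM, mostly Phex at 250, 173, 246 and 100 CPM. Smooth muscle markers summed to 247, 509, 340 and 507 CPM, mostly Acta2 at 234, 477, 322 and 487 CPM. Tenocyte markers summed to 6.41, 17.1, 9.67 and 31.0 CPM, and the chondrocyte sum is given with Col2a1 below. Each condition has 1 library, so no difference between conditions could be set against a spread between replicates, and no test was made. The 95% intervals given below cover counting error only.

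Collagen transcripts took between 1.13% and 1.39% of all UMIs in the 4 libraries, while single chains differed far more. Col8a1, a chain of network-forming type VIII collagen, was 45.8-fold higher with 5-Aza in H3WT and 20.4-fold higher in H3R26C. The basement membrane chains Col4a1 and Col4a2 and the basement membrane zone chain Col15a1 had nearly equal levels in the H3WT libraries and were lowest in H3R26C with 5-Aza. Col1a1, Col1a2 and Col3a1, the main fibrillar chains of soft connective tissue, differed by at most 1.29-fold in any of the 4 comparisons of whole libraries. Within groups of cells Col3a1 differed more, as given below.

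The 44 genes together held 13938, 13664, 12386 and 11331 CPM, or 1.39%, 1.37%, 1.24% and 1.13% of all UMIs. The ratio of 5-Aza to DMSO was 0.980 (0.978 to 0.983) in H3WT and 0.915 (0.912 to 0.917) in H3R26C. H3R26C to H3WT gave 0.889 (0.886 to 0.891) with DMSO and 0.829 (0.827 to 0.831) with 5-Aza. These summed ratios are small and depend on the processing: the 5-Aza ratio turned to higher values on leaving out differentiated, dividing and Spp1-rich cells, at 0.02 in H3WT and 0.12 in H3R26C on the log2 scale. At least 1 UMI was found for 40, 44, 42 and 44 of the 44 genes, and no gene was at 0 in all libraries. The median cell had a UMI of 12, 11, 11 and 10 collagen genes when 5000 UMIs were drawn at random from every cell (thinning).

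**Figure D1:**
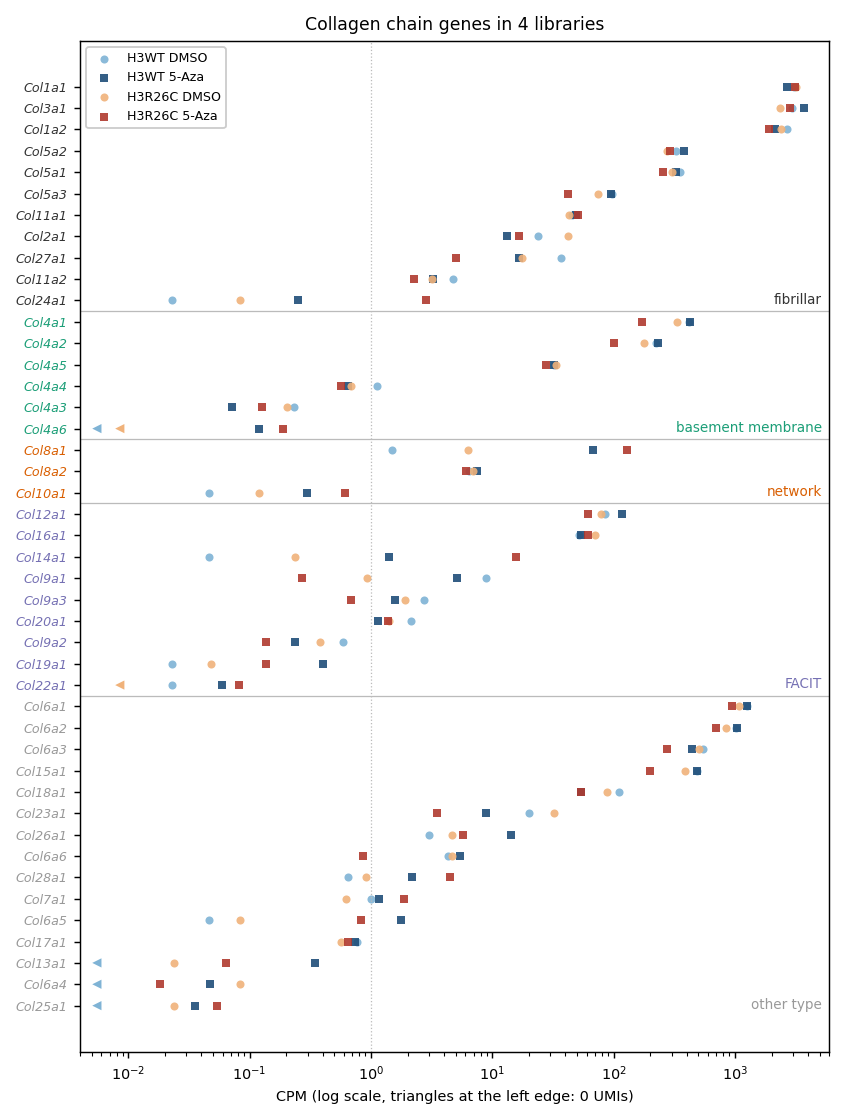
Level of each of the 44 collagen chain genes in the 4 libraries, in CPM on a log scale, with 1 point for each library, triangles at the left edge for 0 UMIs and a dotted line at 1 CPM. Genes are grouped by structural type. Most chains have their 4 points close together, whereas Col8a1 spans 1.48 to 128 CPM and Col14a1 spans 0.0460 to 15.6 CPM.

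Between libraries, a gene was counted as different where its level on the scale of log2(CPM + 1) differed at least 2-fold, which was possible for the 12482 genes whose mean over the 4 libraries reached 1 CPM. This minimum was passed by 31 of the 44 collagen genes, and the 13 others, none above 2.84 CPM in any library, were not counted. In H3WT, 5-Aza was higher for 3 of the 31 collagen genes (Col8a1, Col14a1 and Col26a1) and lower for 3 (Col18a1, Col23a1 and Col27a1), against 4.38% and 0.272% of all genes. In H3R26C, 5-Aza was higher for 3 (Col8a1, Col14a1 and Col28a1) and lower for 4 (Col23a1, Col27a1, Col6a6 and Col2a1), against 7.27% and 3.12%. With DMSO, H3R26C was higher for Col8a1 alone and lower for Col9a1 and Col27a1, against 1.82% and 0.577% of all genes. With 5-Aza, H3R26C was higher for Col14a1 alone, against 4.21%. In this last comparison 9 collagen genes were lower, against 2.68% of all genes, and by size they were Col9a1, Col6a6, Col27a1, Col4a1, Col15a1, Col4a2, Col26a1, Col5a3 and Col23a1. The count of 9 became 2 in cells outside the muscle, adipocyte, mitotic and Spp1 gates described below, where Col4a1 was at -0.99, Col4a2 at -0.90, Col27a1 at -0.88, Col15a1 at -0.78, Col26a1 at -0.73, Col5a3 at -0.55 and Col23a1 at -0.35 on the log2 scale. The share of all genes was not taken for these cells, so the drop from 9 to 2 is not read as a result about collagens. In whole libraries, the median log2 ratio of the 31 genes was 0.01 in H3WT and -0.28 in H3R26C for 5-Aza, and -0.20 with DMSO and -0.37 with 5-Aza for H3R26C. Over all 12482 genes it was 0.04, -0.04, 0.03 and -0.03.

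**Figure D2:**
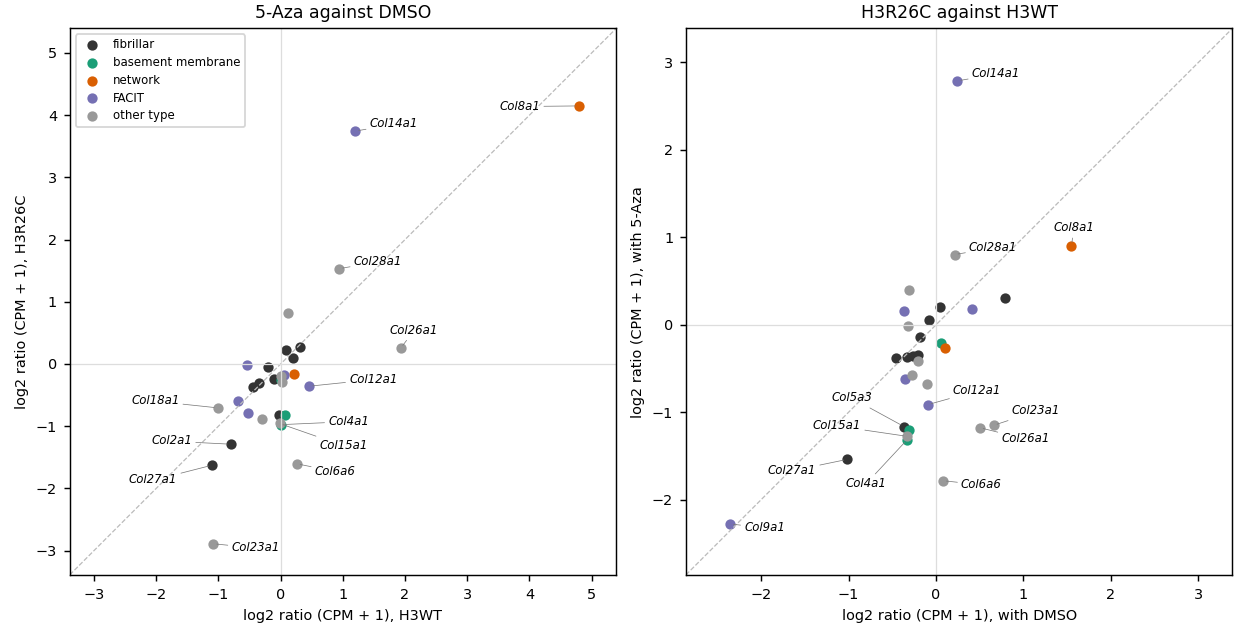
Log2 ratios of (CPM + 1) for the 31 collagen genes above the expression minimum, coloured by structural type, with 5-Aza against DMSO on the left (H3WT on the x axis, H3R26C on the y axis) and H3R26C against H3WT on the right (DMSO on the x axis, 5-Aza on the y axis). The dashed line marks equal ratios, and both panels are drawn from the same 4 libraries. Col8a1 lies at 4.79 and 4.15 on the left, and Col4a1 and Col15a1 lie well below the line in both panels.

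The 11 fibrillar genes held 9650, 9393, 8706 and 8560 CPM, which was 69.2%, 68.7%, 70.3% and 75.5% of the collagen UMIs. Col1a1 and Col1a2 encode the chains of type I collagen, the main collagen of bone, tendon and skin. Col1a1 was at 3090, 2697, 3194 and 3102 CPM. Col1a2 was at 2705, 2118, 2390 and 1924 CPM. Col1a1 was lowest in H3WT with 5-Aza, whereas Col1a2 was lower with 5-Aza in both lines, at 0.783 (0.778 to 0.788) of DMSO in H3WT and 0.805 (0.800 to 0.810) in H3R26C. The chain of the homotrimeric type III collagen, Col3a1, which is found beside type I in elastic tissues, was at 2969, 3701, 2367 and 2868 CPM. It was thus higher with 5-Aza in both lines, by 1.25-fold (1.24 to 1.25) and 1.21-fold (1.20 to 1.22), and lower in H3R26C than in H3WT under both treatments. Outside all gates the 5-Aza ratios were 1.29 (1.28 to 1.30) in H3WT and 1.57 (1.56 to 1.59) in H3R26C. In the Spp1 gate they were 1.81 (1.76 to 1.87) and 2.01 (1.96 to 2.06). The difference between the lines with 5-Aza turned outside all gates, where Col3a1 was at 3988 CPM for H3WT and 4108 CPM for H3R26C, a ratio of 1.03 (1.02 to 1.04). It did not turn in the Spp1 gate, where the ratio was 0.763 (0.754 to 0.772). Nor did it in the mitotic gate, at 2048 CPM for H3WT and 1433 CPM for H3R26C.

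Type V chains are incorporated into type I fibrils and help to set their diameter. Col5a1 was at 349, 324, 301 and 255 CPM, and Col5a2 at 329, 377, 273 and 293 CPM. The third type V chain, Col5a3, was at 96.3, 94.8, 74.5 and 41.7 CPM. Col5a3 was nearly equal in the H3WT libraries, with a ratio of 0.984 (0.955 to 1.02), and lower with 5-Aza in H3R26C, at 0.560 (0.539 to 0.582). The ratio in H3R26C was 0.894 (0.853 to 0.937) outside all gates and 0.468 (0.413 to 0.532) in the Spp1 gate. In the mitotic gate of H3R26C, Col5a3 was at 47.4 CPM with DMSO and 27.1 CPM with 5-Aza. The type XI chain Col11a1, known from cartilage fibrils, was at 45.7, 48.6, 43.2 and 50.4 CPM. It differed by at most 1.17-fold in any comparison of whole libraries, but not within the gates. For 5-Aza in H3R26C its ratio was 1.43 (1.36 to 1.51) outside all gates and 0.607 (0.547 to 0.676) in the Spp1 gate. With 5-Aza, H3R26C was at 1.41 (1.33 to 1.49) and 0.549 (0.508 to 0.593) of H3WT in these groups.

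Among the fibrillar chains, Col2a1 and Col27a1 showed the largest ratios of those above the expression minimum. Col2a1, the chain of cartilage collagen, was at 23.9, 13.3, 42.1 and 16.6 CPM. It was highest in H3R26C with DMSO and lower with 5-Aza, at 0.555 (0.516 to 0.598) of DMSO in H3WT and 0.395 (0.373 to 0.418) in H3R26C. The chondrocyte marker list summed to 395, 337, 316 and 202 CPM, nearly all of it Sox9 at 386, 311, 310 and 189 CPM, with the part of such cells in the result not tested. Col27a1, which forms thin fibrils in cartilage and other tissues, was at 36.6, 16.5, 17.6 and 5.02 CPM. It was highest in H3WT with DMSO and lowest in H3R26C with 5-Aza, with the other libraries close together between them. The ratio of 5-Aza to DMSO for Col27a1 was 0.451 (0.423 to 0.480) in H3WT and 0.285 (0.258 to 0.314) in H3R26C. Outside all gates the Col27a1 ratio was -0.99 for 5-Aza in H3R26C and -0.91 for H3R26C with DMSO on the scale of log2(CPM + 1), each short of 2-fold. As ratios of CPM these were 0.480 (0.426 to 0.540) and 0.521 (0.488 to 0.555). Col24a1, a fibrillar chain known from developing bone, had 2, 21, 7 and 314 UMIs and so lay below the minimum. H3R26C with 5-Aza exceeded H3WT with 5-Aza 11.4-fold (7.32 to 18.7) in this gene.

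The 6 type IV genes of the basement membrane held 677, 690, 548 and 300 CPM. H3WT with 5-Aza was at 1.02 (1.01 to 1.03) of H3WT with DMSO, and H3R26C with 5-Aza at 0.546 (0.539 to 0.554) of H3R26C with DMSO. Col4a1 and Col4a2 form the common heterotrimer of nearly all basement membranes and are transcribed away from each other from overlapping starts. In GRCm38, Col4a1 lies on the minus strand at chr8:11198423-11312826 and Col4a2 on the plus strand at chr8:11312805-11449287. Col4a1 was at 421, 423, 335 and 170 CPM, and Col4a2 at 223, 234, 179 and 101 CPM. Both genes were close in the H3WT libraries, somewhat lower in H3R26C with DMSO and lowest in H3R26C with 5-Aza. With 5-Aza, H3R26C was at 0.401 (0.394 to 0.408) of H3WT for Col4a1 and at 0.433 (0.423 to 0.443) for Col4a2. Col4a5, which occurs in specialised basement membranes such as that of the glomerulus, was at 32.1, 32.3, 33.5 and 27.8 CPM and did not share this pattern in size. Its neighbour Col4a6 had 0, 10, 0 and 21 UMIs, where a count of 0 allows up to 0.0345 CPM for H3WT and 0.0357 CPM for H3R26C. Col4a3 and Col4a4 did not exceed 1.13 CPM in any library.

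After thinning to 5000 UMIs, the share of cells with a Col4a1 UMI was 79.6% (78.2 to 80.9), 71.2% (70.1 to 72.4), 71.1% (69.8 to 72.4) and 48.3% (47.1 to 49.4). Without thinning it was 97.9%, 89.0%, 93.1% and 74.0%. The lowest share was thus in H3R26C with 5-Aza in both forms. By contrast, a Col1a1 UMI was found in 97.8% to 99.5% of thinned cells in the 4 libraries.

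Type VIII collagen forms hexagonal lattices, as in the membrane beneath the corneal endothelium, and is also known from vessel walls. The gene Col8a1 lies on the minus strand at chr16:57624258-57754737 and Col8a2, its partner chain, on the plus strand at chr4:126286793-126314330 of GRCm38. The 250 bases before each start are shown with their CpG sites, where DNA can be methylated. Over whole libraries the 2 partner chains differed in their 5-Aza ratios, and a link to these sites was not tested. Both come from RefSeq's GRCm38.p6 annotation, run 5′ to 3′ on the gene's strand, and have every CG in capitals. For Col8a1 the stretch is chr16:57754738-57754987 on the minus strand, and for Col8a2 it is chr4:126286544-126286793 on the plus strand.
Col8a1: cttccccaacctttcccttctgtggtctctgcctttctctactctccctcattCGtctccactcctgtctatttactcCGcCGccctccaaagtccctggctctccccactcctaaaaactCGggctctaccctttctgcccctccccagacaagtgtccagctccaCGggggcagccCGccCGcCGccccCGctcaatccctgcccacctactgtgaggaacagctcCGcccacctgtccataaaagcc
Col8a2: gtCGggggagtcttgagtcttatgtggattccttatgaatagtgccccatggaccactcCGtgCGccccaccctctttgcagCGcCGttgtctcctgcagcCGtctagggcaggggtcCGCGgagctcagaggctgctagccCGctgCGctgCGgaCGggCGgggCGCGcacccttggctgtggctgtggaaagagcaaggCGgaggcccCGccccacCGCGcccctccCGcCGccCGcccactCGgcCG
The motif CG, which reads the same on both strands, occurred 10 times before Col8a1 and 24 times before Col8a2. As many were found in 37.8% and 11.98% of the 32851 promoter stretches of this length in the mouse annotation. Methylation was not measured in these cells, so the counts of CG describe the sequence only.

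Col8a1 had 129, 5733, 527 and 14162 UMIs, or 1.48, 68.0, 6.27 and 128 CPM. It was low in both DMSO libraries and high in both 5-Aza libraries. Over whole libraries it was higher in H3R26C within each treatment, with only 8 thinned cells of H3WT and 41 of H3R26C holding a UMI with DMSO. The ratio of 5-Aza to DMSO was 45.8 (38.4 to 54.9) in H3WT and 20.4 (18.7 to 22.3) in H3R26C, or 4.79 and 4.15 on the scale of log2(CPM + 1). H3R26C exceeded H3WT 4.22-fold (3.48 to 5.16) with DMSO and 1.88-fold (1.82 to 1.94) with 5-Aza. Col8a2 was at 6.38, 7.53, 6.94 and 6.08 CPM and differed by no more than 1.24-fold in any comparison of whole libraries. The ratio of Col8a1 to Col8a2 UMIs therefore went from 0.233 (0.191 to 0.283) to 9.03 (8.32 to 9.82) in H3WT and from 0.904 (0.802 to 1.02) to 21.0 (19.5 to 22.8) in H3R26C. The remaining network chain, Col10a1 of hypertrophic cartilage, did not exceed 0.61 CPM in any library.

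Col8a1 was detected in a minority of the thinned cells of every library. The thinned shares with a UMI were 0.216% (0.0931 to 0.424), 12.1% (11.3 to 13.0), 0.867% (0.623 to 1.18) and 31.8% (30.7 to 32.8), and the unthinned ones 0.404%, 20.5%, 1.31% and 51.0%. Free RNA can add UMIs to cells that do not express a gene, and muscle-gate cells (at least 1% of UMIs from 12 muscle genes), for which type VIII collagen is not a known product, served as the comparison. In the muscle gate, the share was 2.50% (0.519 to 7.13, 3 of 120 cells) in H3WT with 5-Aza at a median of 14042 UMIs, and 13.7% (9.14 to 19.4, 26 of 190 cells) in H3R26C with 5-Aza at a median of 21144 UMIs. The share over all cells was above that of the muscle gate within each of these libraries, and the DMSO libraries held no muscle-gate cells to compare with. The median kept cell of these libraries held 13149 and 13123 UMIs, fewer than in the muscle gate. Thinning can therefore dilute free RNA more in muscle-gate cells. Barcodes left out by the cell filter held 46.8 and 127 CPM of Col8a1 in these libraries. The comparison thus cannot settle the part of free RNA, which was not tested. In H3WT with 5-Aza, the 10% of cells with the most Col8a1 held 93.8% of its thinned UMIs, with up to 70 in a single cell. In H3R26C with 5-Aza the same 10% held 62.4%, with up to 36 in a cell. The variance of the thinned count divided by its mean was 11.8 in the first of these libraries and 4.38 in the second, so the RNA was concentrated in fewer cells in H3WT.

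The 9 FACIT genes held 151, 180, 153 and 141 CPM. Col12a1, which binds the surface of type I fibrils in tendon and fascia, was at 84.2, 116, 78.7 and 61.2 CPM. It was highest in H3WT with 5-Aza and lowest in H3R26C with 5-Aza, with 5-Aza ratios of 1.38 (1.34 to 1.42) and 0.778 (0.752 to 0.805). Outside all gates Col12a1 was at 83.5, 122, 82.2 and 96.8 CPM, so that the 5-Aza ratio in H3R26C turned to 1.18 (1.13 to 1.23). Col16a1, a FACIT chain of skin and cartilage, was at 52.3, 54.1, 69.6 and 61.6 CPM, and was higher in H3R26C under both treatments by 1.33-fold (1.28 to 1.39) and 1.14-fold (1.10 to 1.18).

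Col14a1 and Col9a1 differed in opposite directions between the lines. Col14a1, a fibril-associated chain with a part in fibril growth, had 4, 118, 20 and 1725 UMIs, or 0.0460, 1.40, 0.238 and 15.6 CPM. Nearly all of this RNA was in H3R26C with 5-Aza, which exceeded H3WT with 5-Aza 11.1-fold (9.24 to 13.5) and H3R26C with DMSO 65.5-fold (42.3 to 107). Outside all gates these were 19.7-fold (15.8 to 25.02) and 102.2-fold (63.5 to 176), and the ratio between the lines was 4.35 (2.96 to 6.65) in the Spp1 gate. A UMI of Col14a1 was found in 0 of 3710 thinned cells, which allows a share of up to 0.0809%, and in 0.534%, 0.190% and 4.84% of the cells of the other libraries, with unthinned shares of 0.108%, 1.30%, 0.402% and 8.35%. Col9a1, a chain of the cartilage collagen type IX, was at 8.90, 5.16, 0.928 and 0.271 CPM. It was high in both H3WT libraries and low in both H3R26C libraries, with H3WT exceeding H3R26C 9.59-fold (7.59 to 12.3) with DMSO and 19.03-fold (13.1 to 28.6) with 5-Aza. Outside all gates the second of these was smaller, with H3R26C at 0.121 (0.0757 to 0.185) of H3WT. Col9a3, a further type IX chain, was at 2.73, 1.59, 1.92 and 0.686 CPM.

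The 15 remaining genes comprise the type VI filament chains, the anchoring chain Col7a1, the transmembrane chains, the multiplexins Col15a1 and Col18a1, and Col26a1 and Col28a1. Together they held 3453, 3324, 2965 and 2196 CPM. The type VI chains, whose filaments link cells to the matrix around them, made up most of these UMIs. Col6a1 was at 1252, 1262, 1087 and 950 CPM, and Col6a2 at 1025, 1044, 849 and 698 CPM. Col6a3 was at 545, 444, 509 and 276 CPM. All 3 were lowest in H3R26C with 5-Aza, which stood at 0.753 (0.746 to 0.759), 0.669 (0.662 to 0.675) and 0.622 (0.613 to 0.632) of H3WT with 5-Aza. Outside all gates Col6a1 and Col6a2 were instead lowest in H3R26C with DMSO, and their 5-Aza ratios in H3R26C turned from 0.874 and 0.822 to 1.09 (1.08 to 1.11) and 1.08 (1.07 to 1.10). In the Spp1 gate these ratios did not turn, at 0.722 (0.704 to 0.741) and 0.617 (0.600 to 0.635). Both chains were lowest there in H3R26C with 5-Aza, as they were in the mitotic gate. Col6a6, a chain that resembles Col6a3 in structure, was at 4.35, 5.39, 4.65 and 0.858 CPM. It was low in H3R26C with 5-Aza alone, at 0.184 (0.146 to 0.231) of H3R26C with DMSO. Outside all gates this ratio was 0.435 (0.339 to 0.554). On the scale of log2(CPM + 1) it was -0.92 there, short of 2-fold on that scale only.

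Multiplexins lie in the basement membrane zone and release antiangiogenic fragments. Col15a1 was at 491, 485, 389 and 200 CPM, an order much like that of Col4a1. With 5-Aza, H3R26C was at 0.412 (0.405 to 0.419) of H3WT, while the H3WT libraries gave a 5-Aza ratio of 0.988 (0.975 to 1.002). The thinned share of cells with a Col15a1 UMI was 77.7%, 73.7%, 66.8% and 41.8%, and the unthinned share 94.0%, 86.8%, 87.3% and 58.0%. Col18a1, the source of endostatin, was at 110, 54.1, 87.8 and 53.4 CPM and so was lower with 5-Aza in both lines. Its 5-Aza ratio was 0.491 (0.474 to 0.509) in H3WT and 0.609 (0.588 to 0.630) in H3R26C, and the first of these fell short of 2-fold in cells outside the gates, at -0.95 on the log2 scale.

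Col23a1, a transmembrane collagen, was at 20.01, 8.92, 32.2 and 3.47 CPM. It was highest in H3R26C with DMSO and lowest in H3R26C with 5-Aza, a ratio of 0.108 (0.0967 to 0.120), against 0.446 (0.409 to 0.486) in H3WT. The ratio in H3R26C was 0.204 (0.179 to 0.231) outside all gates. In the Spp1 gate the ratios were 0.972 (0.560 to 1.78) in H3WT and 0.280 (0.176 to 0.461) in H3R26C. Col26a1, known from developing testis and ovary, was at 3.02, 14.3, 4.68 and 5.76 CPM, so that H3WT with 5-Aza stood above the other libraries. Col28a1, a chain found around peripheral nerve, was at 0.645, 2.16, 0.904 and 4.51 CPM. It was higher with 5-Aza in both lines, by 3.35-fold (2.47 to 4.60) and 4.99-fold (3.91 to 6.43). In the Spp1 gate these ratios were 1.61 (0.669 to 4.67) and 1.58 (0.969 to 2.75), with intervals that included 1.

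Chains that share a trimer were compared through the ratio of their UMIs, since a change of this ratio between libraries does not depend on transcript length. Col1a1 to Col1a2 was 1.14, 1.27, 1.34 and 1.61, so the libraries differed although every intact heterotrimer takes these chains in 1 proportion. Col4a1 to Col4a2 stayed between 1.68 and 1.89, and Col6a1 to Col6a2 between 1.21 and 1.36. Col5a1 to Col5a2 was 1.06 and 1.10 with DMSO and 0.860 and 0.869 with 5-Aza. Col6a3 to Col6a1 was 0.436 and 0.468 with DMSO and 0.352 and 0.291 with 5-Aza. Over whole libraries, Col5a1 to Col5a2 and Col6a3 to Col6a1 thus separated by treatment, whereas the type I ratio was lowest in H3WT with DMSO and highest in H3R26C with 5-Aza. For Col6a3 to Col6a1 this did not hold in the Spp1 gate described below. There the 5-Aza ratios of Col6a3 and Col6a1 were nearly equal, at 0.926 and 0.931 in H3WT and 0.717 and 0.722 in H3R26C. In the mitotic gate, with Col6a3 at 315, 281, 294 and 218 CPM and Col6a1 at 1027, 895, 977 and 622 CPM, the ratio was not lower with 5-Aza.

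**Figure D3:**
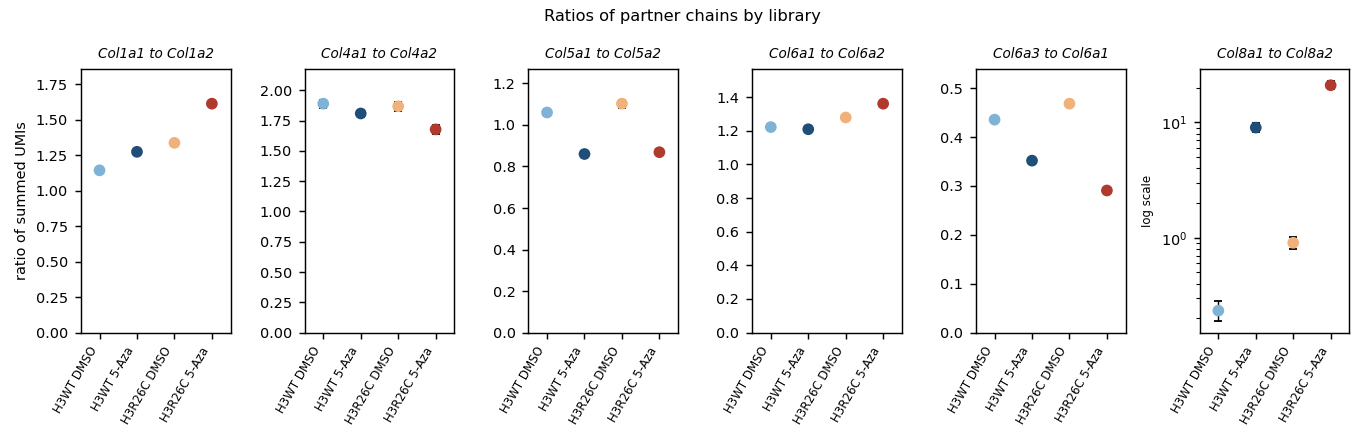
Ratio of the summed UMIs of 6 pairs of partner chains in each library, with 95% counting intervals, on linear axes from 0 except for Col8a1 to Col8a2, which has a log axis. Col8a1 to Col8a2 runs from 0.233 to 21.0, and the other pairs lie between 0.291 and 1.89 in all libraries.

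Across the thinned cells of each library, partner chains varied together. Among 8364 to 8640 genes, the one with the highest correlation with Col1a1 was Col1a2 in all 4 libraries, at Pearson's r of 0.52, 0.61, 0.66 and 0.72. For Col4a1 it was Col4a2, at 0.42, 0.62, 0.57 and 0.47, and for Col6a1 it was Col6a2, at 0.51, 0.58, 0.57 and 0.65. After Col1a2, the gene next in order for Col1a1 was Col3a1 in each library. Less close were Col5a1 and Col5a2, at 0.18 to 0.42, and Col6a3 and Col6a1, at 0.17 to 0.31. The cells of a library share its preparation and cell states, and thinned counts of low genes limit r, so these values describe the libraries.

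The cells were also divided by genes that are not collagens, with each gate a range of a score and not a cell type. The muscle gate took cells with at least 1% of UMIs from 12 muscle genes, and held 0, 120, 0 and 190 cells. The adipocyte gate took cells with at least 1% from 8 adipocyte genes, and held 3, 26, 12 and 8 cells. The mitotic gate took cells with at least 10 thinned UMIs from 10 mitosis genes, and held 117, 322, 307 and 879 cells. A gate of at least 10 thinned UMIs of Spp1, the gene of the matrix protein osteopontin, held 93, 624, 241 and 3724 cells. Cells that met several of these ranges were placed in a single gate, in the order muscle, adipocyte, mitotic and Spp1. The Spp1 gate therefore leaves out cells with as much Spp1 that met the range of another gate. The 3497, 4901, 4167 and 2818 cells outside all gates made up most of each library except H3R26C with 5-Aza. Near the cut, at 8 to 11 thinned UMIs of Spp1, lay 84, 372, 149 and 666 of the kept cells, whatever their gate. At the same values of the mitotic score lay 25, 46, 62 and 161 cells.

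Outside all gates the 44 genes held 14276, 14450, 13087 and 14207 CPM, a narrower range than in whole libraries. Mitotic cells held less, at 8815, 8885, 7954 and 7516 CPM. Muscle-gate cells held least, with 5-Aza at 3481 CPM for H3WT and 2886 CPM for H3R26C. Cells of the Spp1 gate lay between, at 12256, 13750, 10608 and 11291 CPM. Collagen RNA was thus lower in dividing cells and in cells with a muscle programme than in the rest of the same library, in every library where these gates held cells. Col1a1 outside all gates was at 3162, 2835, 3365 and 3512 CPM, against 1941, 1820, 2048 and 2306 CPM in the mitotic gate. Col2a1 went the other way, with 18.9, 11.1, 28.8 and 13.9 CPM outside all gates and 82.5, 37.0, 125 and 25.3 CPM in the mitotic gate.

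With 5-Aza, Col4a1 and Col4a2 were lower in H3R26C than in H3WT within every gate. Outside all gates Col4a1 was at 430, 422, 365 and 212 CPM, and H3R26C with 5-Aza stood at 0.501 (0.489 to 0.514) of H3WT with 5-Aza. In the Spp1 gate it was at 453, 554, 225 and 166 CPM, with the same ratio at 0.301 (0.290 to 0.311). Col15a1 was at 517, 544, 436 and 317 CPM outside all gates and at 241, 346, 209 and 161 CPM in the Spp1 gate, with ratios of 0.582 (0.570 to 0.595) and 0.464 (0.446 to 0.483). Both chains were therefore lower in H3R26C with 5-Aza in either group of cells, although its Spp1 gate was also much larger. The adipocyte gate was the exception for Col15a1, with 395 CPM in 26 cells of H3WT and 546 CPM in 8 cells of H3R26C. The few adipocyte-gate cells had the highest Col4a1 of any gate, at 1444, 990, 963 and 460 CPM from 3, 26, 12 and 8 cells.

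For Col8a1 the 5-Aza difference was also present in both groups, at 30.4-fold (25.4 to 36.8) in H3WT and 17.03-fold (15.5 to 18.7) in H3R26C outside all gates. It was at 1.51, 46.1, 7.17 and 122 CPM outside all gates and at 2.68, 241, 1.62 and 154 CPM in the Spp1 gate. H3R26C with 5-Aza exceeded H3WT with 5-Aza 2.65-fold (2.53 to 2.77) outside all gates and was at 0.638 (0.609 to 0.669) of it in the Spp1 gate. The order of the lines with 5-Aza therefore differed between these groups of cells. With DMSO the ratio of H3R26C to H3WT was 4.73 (3.87 to 5.82) outside all gates. In the Spp1 gate it was 0.603 (0.191 to 1.96), an interval that included 1. The partner chain Col8a2 was not level in the Spp1 gate, at 3.45, 12.9, 4.25 and 6.26 CPM. Its 5-Aza ratio there was 3.73 (1.90 to 8.36) in H3WT and 1.47 (0.946 to 2.41) in H3R26C. Outside all gates these ratios were 1.11 (0.977 to 1.26) and 1.07 (0.924 to 1.24).

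**Figure D4:**
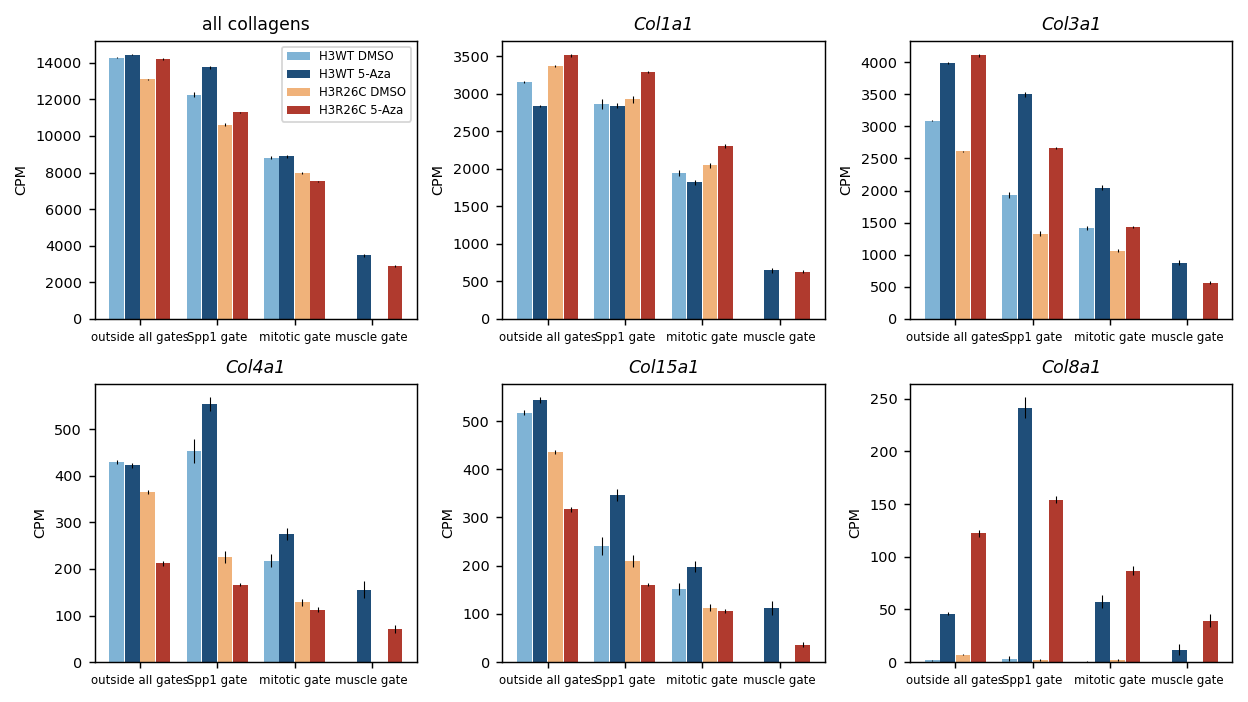
CPM of all collagens and of 5 chains within cell gates, by library, with 95% counting intervals as thin lines and axes from 0. Bars are missing where the muscle gate held no cells. All collagens are lowest in the muscle gate, Col4a1 and Col15a1 are lower in H3R26C than in H3WT with 5-Aza in each gate shown, and Col8a1 does not exceed 7.17 CPM in any DMSO bar.

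Collagen chains need a set of enzymes and chaperones before they form fibres, and bind a set of receptors. Of 43 such genes, 35 passed the expression minimum. With 5-Aza in H3WT, 2 were at least 2-fold higher and 0 lower, or 5.71% and 0% of the list against 4.38% and 0.272% of all genes. They were Plod2, a lysyl hydroxylase that prepares cross-links, at 1.58 and the cross-linking oxidase Loxl2 at 1.23 on the log2 scale. In H3R26C, 6 were higher and 2 lower with 5-Aza, or 17.1% and 5.71% against 7.27% and 3.12%. The 5 with the largest ratios were Plod2 at 1.93, the prolyl hydroxylase subunit P4ha2 at 1.72, the propeptide-processing enhancer Pcolce2 at -1.62, the collagen receptor Ddr2 at -1.36 and the oxidase Loxl4 at 1.32. Plod2 was at 37.3, 113.7, 45.5 and 176 CPM, and was thus higher in both 5-Aza libraries. The chaperone of procollagen, Serpinh1, was at 914, 1182, 918 and 1434 CPM, whereas the summed collagens of whole libraries were lowest in the library where it was highest. Outside all gates the summed collagens were instead lowest in H3R26C with DMSO, at 13087 CPM, against 14207 CPM in H3R26C with 5-Aza.

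Between the lines, 1 gene of the list (2.86%, against 1.82% of all genes) was higher and 0 lower in H3R26C with DMSO, the procollagen N-proteinase Adamts2, which stood at 24.0 CPM for H3WT and 58.0 CPM for H3R26C. With 5-Aza, 5 were higher and 2 lower, or 14.3% and 5.71% against 4.21% and 2.68%. The largest of these were Pcolce2 at -1.95, P4ha2 at 1.39, Adamts2 at 1.31, the collagen-binding integrin chain Itga11 at 1.18 and a further such chain, Itga1, at -1.11. The median log2 ratio of the 35 genes was 0.18 and 0.17 for 5-Aza in H3WT and H3R26C, and 0.09 and 0.07 for H3R26C with DMSO and 5-Aza.

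A promoter stretch from 250 bases before to 50 after the start was held by RefSeq for 35 of the 44 genes, with 38 stretches in all. The number of CG was 37 for Col4a1 and 33 for Col4a2, whose stretches overlap, and 34 for Col5a1, against a median of 7 over all stretches. It was 0 for Col3a1, Col28a1 and a stretch of Col9a1, whose other stretch had 1. Col8a1 had 12 and its partner Col8a2 had 32.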

How the data were processed

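UMI counts per gene and barcode were analysed for 4 single-cell libraries, 1 for each condition. The authors ran Cell Ranger, whose deposited file headers give version 6.1.0, on the mm10 reference, and deposited the filtered matrices as whole counts without normalization. The submitters' processing notes also name Seurat 4. The cell filter of the study's methods, with at least 5000 UMIs, at least 1500 genes and at most 20% mitochondrial UMIs, was applied here and kept 22049 of 39891 barcodes. Doublets were not removed.

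Counts were summed over the kept cells of a library and scaled to CPM, with exact Poisson intervals for levels and exact conditional binomial intervals for ratios. Ratios on the log2 scale used a pseudocount of 1 CPM and genes whose mean over the libraries reached 1 CPM. Shares of cells were taken after each cell was thinned to 5000 UMIs, with exact binomial intervals at 95%, and a count of 0 was read as at most 3 counts. The steps were tested on data simulated with counting error alone. Those data held no spread between libraries or between cells, so the test says nothing about either. Members, structural types, marker lists and the maturation list were chosen with earlier results of these data known. Named with values were members at 20 CPM or more in at least 1 library, partner chains, and members at least 2-fold apart in a comparison, and from the maturation list up to 5 genes per comparison, by size. Others named (Col24a1, Col9a3, Col10a1, Serpinh1) were chosen after their values were seen. UMI counts were not scaled to transcript length. Shares of summed UMIs and ratios of partner chains are thus statements about UMIs, and they do not rank the genes by expression. Overlapping genes such as Col4a1 and Col4a2 can share reads at their starts, and whether counting used strand is not given in the sources used here. Gene positions came from GENCODE's GRCm38 annotation and promoters from RefSeq's GRCm38.p6 annotation. Python 3.11.15 was used with numpy 2.4.6, scipy 1.17.1, pandas 2.3.3 and matplotlib 3.10.9. Alternatives changed the pseudocount, the expression minimum, the cell filter, the scaling, the summing over cells, the thinning and the gates included.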

Additional observations from a re-analysis of the deposited data

Results flagged for a closer look

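Of the 31 collagen genes above the expression minimum, 6 differed in direction between the lines or between the treatments. The rule asked for intervals of both ratios that exclude 1 and a difference of at least 1.5-fold. The share of all genes that meets this rule was not taken, so the count is not read as a result about collagens. None of the differences was tested, since each condition has 1 library. With 5-Aza against DMSO, Col4a2 was at 0.07 in H3WT and -0.82 in H3R26C on the log2 scale, a difference of -0.89. Col6a6 was at 0.26 and -1.60, a difference of -1.86, and Col12a1 at 0.46 and -0.36, a difference of -0.82. For Col12a1 the opposite directions were seen in the whole libraries only, with 0.54 and 0.23 outside all gates and -0.17 and -0.44 in the Spp1 gate. Col4a2 was at 0.04 and -0.64, and Col6a6 at 0.39 and -0.92, outside all gates. In the Spp1 gate Col4a2 was at 0.39 and -0.12. Col6a6, which did not exceed 1.37 CPM there, was at 1.25 and -0.11. For both genes the interval of the H3R26C ratio in the Spp1 gate included 1. With H3R26C against H3WT, Col7a1, the chain of the anchoring fibrils of skin, was at -0.31 with DMSO and 0.40 with 5-Aza, a difference of 0.70. Col23a1 was at 0.66 and -1.15, a difference of -1.81, and Col26a1 at 0.50 and -1.18, a difference of -1.68. Col7a1, Col23a1 and Col26a1 did not show opposite directions in the Spp1 gate. There Col7a1 was at 0.19 and 0.51, Col23a1 at -0.31 and -1.60, and Col26a1 at -0.61 and -1.93. The intervals of the DMSO ratios in that gate included 1. Outside all gates the directions stayed opposite, at -0.42 and 0.54, 0.77 and -0.35, and 0.61 and -0.73.

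Barcodes that did not pass the cell filter also held collagen RNA that differed with treatment. Col8a1 was at 46.8 CPM there in H3WT with 5-Aza and at 127 CPM in H3R26C with 5-Aza, against 0 and 1.98 CPM with DMSO. Col14a1 was at 19.9 CPM in H3R26C with 5-Aza, against 0 and 0.495 CPM with DMSO.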

How the results depend on the processing

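No paired analysis was possible because the libraries carry no replicate numbers, with a single library for every condition. The log2 ratio of summed collagens was -0.03, -0.13, -0.17 and -0.27 for 5-Aza in H3WT, 5-Aza in H3R26C, H3R26C with DMSO and H3R26C with 5-Aza. In this order it was -0.053, -0.12, -0.16 and -0.23 with the looser cell filter, -0.034, -0.17, -0.19 and -0.33 with the stricter filter, 0.00043, -0.056, -0.12 and -0.18 as a mean over cells, and -0.062, -0.067, -0.22 and -0.23 with median ratio scaling. It was 0.015, -0.047, -0.14 and -0.20 outside the muscle, adipocyte and mitotic gates. Outside all gates, a setting chosen after seeing the data, it was 0.017, 0.12, -0.13 and -0.024. With a minimum of 10 CPM, the members at least 2-fold higher with 5-Aza numbered 1 in place of 3 in each line, and for H3R26C they numbered 1 lower with DMSO and 0 higher with 5-Aza, since fewer genes pass. With a pseudocount of 0.1 CPM, 2 were higher in H3R26C under either treatment. With no minimum, and as a mean over cells, 2 were higher in H3R26C with 5-Aza. As a mean over cells, and outside the 3 gates, 1 was lower in H3R26C with DMSO. Outside all gates, 2 were lower with 5-Aza in H3R26C and 1 was lower in H3R26C with DMSO, and with 5-Aza 3 were higher and 2 lower in H3R26C. Shares of all genes were not taken for these settings, so the changed counts are not read as results about collagens. The cause was not tested for the changes other than with the expression minimum. Of 26 single ratios at least 2-fold, 15 stayed so in every setting, and all 182 alternative values kept their direction. The Spp1 gate by itself was not among these settings. With 1 library per condition, depth limits counting error only.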

Other observations

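The 2529, 9009, 1813 and 4491 barcodes that did not pass the cell filter held 6540, 5709, 6547 and 11073 CPM of collagens. In H3R26C with 5-Aza this was close to the 11331 CPM of its kept cells, whereas in the other libraries it was well below theirs. Col1a1 in these barcodes was at 1521, 1102, 1660 and 3156 CPM, and Col3a1 at 1534, 1676, 1404 and 2778 CPM. The basement membrane chains did not follow this order, with Col4a1 at 212, 183, 202 and 190 CPM and Col15a1 at 231, 199, 259 and 232 CPM.

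The collagen share of the UMIs of a single cell had a median of 1.36%, 1.31%, 1.19% and 1.06%, with a standard deviation across cells of 0.449, 0.708, 0.614 and 0.856 percentage points. The spread was thus widest in the library with the lowest median. Its middle 90% of cells ran from 0.295% to 2.76% there, against 0.760% to 2.17% in H3WT with DMSO.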
